A study of Homo sapiens with 12 samples.

Results

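The 40 genes described here act in the G2 phase and in mitosis: cyclins and the CDK1 kinase that start division, the kinases and checkpoint proteins that time it, and the kinetochore, spindle and cytokinesis proteins that carry it out. Members were picked by gene symbol in the deposited annotation (CDK1 stands there under its older symbol CDC2). Where a gene had several probe sets, the brightest by mean signal over the 12 arrays was used. All 40 were measured, by 77 of the 54613 probe sets, out of 19682 genes. The arrays were Affymetrix Human Genome U133 Plus 2.0, and a signal is the linear intensity of 1 probe set on 1 array. Of the members, 22 had several probe sets and 18 had 1.

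The cells were Ect1, an epithelial line from the human ectocervix that papillomavirus oncogenes had immortalised. In every group the cells formed a confluent monolayer in a keratinocyte medium without serum, to which EGF and pituitary extract had been added. For 10 h they received seminal plasma from pooled human donors (10% v/v), TGFB3, a cytokine of the TGF-beta family, at 5 ng/ml, or medium alone (control). Each treatment has 4 arrays, and each array read a biological replicate pooled from 4 wells. A single cell line and pooled seminal plasma limit these groups as models of the tissue, and with 4 arrays a group the precision is limited.

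As background, a cell enters mitosis when CDK1 joins cyclin B and is freed of inhibitory phosphates. The chromosomes then attach to spindle microtubules through kinetochores, and a checkpoint holds the anaphase-promoting complex until they have done so. Transcripts of these genes are low in resting cells and in G1 and climb together towards mitosis, so that in a cell population their levels follow the share of cells in G2 and M. In bulk RNA, fewer cells in these phases and less RNA per cell cannot be told apart. In keratinocytes and many other epithelia TGF-beta is known for arresting growth in G1, while the papillomavirus oncogenes that immortalise such lines act on the RB pathway through which such arrest runs.

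The promoters of many G2/M genes share short elements, which are shown for the members that the values below turn on. The cell cycle genes homology region, with the core TTTGAA or TTCGAA, is a known binding element of the DREAM and MuvB complexes, and CCAAT is the element of the factor NF-Y. RefSeq promoter windows (build GRCh38.p14), from 250 bases before to 50 bases after an annotated start, were matched by symbol for 33 of the 40 members. UBE2C, BIRC5, RACGAP1, AURKA, FOXM1, TPX2 and TTK are named only. On either strand, TTTGAA was found in 24 of the 33 genes (72.7%) against 18.2% of all 27305 genes in the table. CCAAT was found in 27 (81.8%) against 39.7%, and TTCGAA in 2 (6.06%) against 1.82%. CCAAT together with either core stood in 21 of 33 (63.6%), against 7.85% of all genes. A match is a description of these letters and not of a bound site. The stretches below are the 150 bases before the start, read 5′ to 3′ along the gene, with every match to the motifs on either strand in capitals (ATTGG and TTCAAA are CCAAT and TTTGAA on the opposite strand).
KIF20A (chr5:138178962-138179111, plus strand): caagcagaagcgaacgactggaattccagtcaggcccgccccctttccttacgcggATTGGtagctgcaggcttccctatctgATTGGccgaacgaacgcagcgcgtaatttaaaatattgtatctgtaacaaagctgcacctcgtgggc
NUSAP1 (chr15:41332731-41332880, plus strand): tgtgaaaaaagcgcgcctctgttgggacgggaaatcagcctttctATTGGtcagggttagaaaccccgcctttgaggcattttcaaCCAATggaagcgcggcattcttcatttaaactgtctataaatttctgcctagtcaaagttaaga
ANLN (chr7:36389712-36389861, plus strand): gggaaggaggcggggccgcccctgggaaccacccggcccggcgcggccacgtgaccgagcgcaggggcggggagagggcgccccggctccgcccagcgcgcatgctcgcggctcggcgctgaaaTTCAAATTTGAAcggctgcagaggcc
CDK1 (chr10:60778328-60778477, plus strand): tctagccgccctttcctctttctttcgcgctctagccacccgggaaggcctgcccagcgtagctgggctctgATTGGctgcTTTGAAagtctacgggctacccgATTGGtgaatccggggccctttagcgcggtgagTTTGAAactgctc
CCNB1 (chr5:69167000-69167149, plus strand): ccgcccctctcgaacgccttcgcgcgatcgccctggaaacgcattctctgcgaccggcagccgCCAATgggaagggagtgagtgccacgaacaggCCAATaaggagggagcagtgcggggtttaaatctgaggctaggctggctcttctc
PLK1 (chr16:23678739-23678888, plus strand): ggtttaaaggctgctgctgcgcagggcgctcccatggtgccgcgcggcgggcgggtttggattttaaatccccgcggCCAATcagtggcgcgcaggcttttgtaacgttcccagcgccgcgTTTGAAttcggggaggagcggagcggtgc
MKI67 (chr10:128126424-128126573, minus strand): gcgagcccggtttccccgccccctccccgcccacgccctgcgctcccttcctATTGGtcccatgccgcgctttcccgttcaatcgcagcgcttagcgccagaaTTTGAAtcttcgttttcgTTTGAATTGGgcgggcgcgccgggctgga
TOP2A (chr17:40417897-40418046, minus strand): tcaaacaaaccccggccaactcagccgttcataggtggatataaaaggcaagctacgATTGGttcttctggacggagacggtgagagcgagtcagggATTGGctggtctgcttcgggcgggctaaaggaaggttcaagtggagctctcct
KIF20A, NUSAP1 and ANLN are shown because they had the smallest p-values among members lower with seminal plasma, and the others because their values were fixed for report or diverge between probe sets. The KIF20A stretch holds CCAAT on the opposite strand at 94 and 67 bases before the start and neither core. In CCNB1 the CCAAT elements begin 87 and 55 bases before the start. In PLK1 CCAAT begins 73 bases and TTTGAA 29 bases before it. ANLN carries adjoining TTTGAA matches on opposite strands and no CCAAT in this stretch, and in MKI67 a TTTGAA and an ATTGG overlap. In 10 of the 33 members a TTTGAA on the gene's own strand began between 30 and 10 bases before the start. This position was not counted over all genes, so no share stands beside it.

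Of the seminal plasma arrays, replicates 3 and 4 differed in signal distribution from all others. In them 8.01% and 12.8% of probe sets had a signal under 16, against 16.3% to 20.2% in the other 10 arrays, and the median signal was 177.6 and 131.5 against 88.1 to 107.1. The counts of members called, or lower at an unadjusted p, are therefore also given without these arrays, in a fit that keeps 2 seminal plasma arrays. As for cell identity, the epithelial markers (KRT5, KRT14, KRT17, KRT6A, TP63, DSP, ITGB4, EPCAM, CDH1) summed to signals of 253533 to 364358 with seminal plasma, 203775 to 291607 with TGFB3 and 186596 to 286000 in control. The 5 leukocyte markers measured summed to 674.5 to 1126 with seminal plasma, 483 to 832.2 with TGFB3 and 799.7 to 1329 in control. Sperm and testis markers summed to 311 to 623 with seminal plasma, 270.8 to 341.8 with TGFB3 and 292.2 to 340.3 in control, prostate and seminal vesicle markers to 1028 to 1519.8, 688.6 to 1025 and 744.7 to 1014, and fibroblast markers to 928.9 to 1610.2, 2333 to 3687 and 930.9 to 2668. Of the sperm markers, the protamine PRM1 gave 313, 93.3, 71.6 and 197 in seminal plasma replicates 1 to 4, against 70.7, 69.2, 59.6 and 14.1 in control replicates 1 to 4 (limma adjusted p 0.138). The protamine PRM2 was under 16 on every array, and TNP1 and ODF1 reached 269.1 and 194.7 in seminal plasma replicate 3, against at most 162.4 and 100.3 in control. None of these markers was called. The part of these markers in the results below was not tested.

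With seminal plasma the group means of most members lay below those of control, and few differences passed the adjusted threshold. In 33 of 40 members the fitted log2 fold change against control was below 0, as in 42.9% of all genes. The median over members was -0.57, against 0.11 over all genes, and the range was -1.26 to 0.56. Of the 40, 1 passed the test as lower (KIF20A) and 0 as higher, against 1.38% lower and 1.87% higher over all genes (limma on log2 signals, Benjamini-Hochberg adjusted p under 0.05 over all probe sets). At an unadjusted limma p under 0.05, 19 members were lower and 0 higher, against 12.3% and 14.5% of all genes. In 7 members (CDK1, MAD2L1, KIF11, KIF2C, NUSAP1, KIF20A and ANLN) all 4 seminal plasma arrays lay below all 4 controls, which 7.59% of all genes did, and in 0 members all lay above them (8.88% of all genes). With the fit restricted to probe sets of mean signal at least 100, 4 members were called lower (ANLN, BUB1B, KIF20A and NUSAP1), against 6.29% of the 13114 genes left. Without seminal plasma replicates 3 and 4 the median was -0.29, 32 members were below 0, none was called (smallest limma adjusted p 0.168; 0.391% of all genes called lower), and 7 were lower at an unadjusted p under 0.05 (7.67% of all genes).

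The seminal plasma arrays did not agree among themselves. Against the control mean of each gene, the median of the members was 0.07, -0.55, -0.75 and -0.71 (log2) in seminal plasma replicates 1 to 4. It was -0.23, 0.21, 0.25 and 0.12 in the TGFB3 replicates and -0.23, -0.26, 0.26 and 0.25 in the controls. Seminal plasma replicate 2 had a median signal (97.2) and a share of probe sets under 16 (18.3%) within those of the other treatments. All 40 members were below the control mean in it, as were 46.8% of all genes, and 33 were below the lowest control. In seminal plasma replicate 1 only 17 members were below the control mean (48.9% of all genes). There 8 members were below the lowest control and 14 above the highest. The shares of all genes outside the control range of single arrays were not counted. Replicates 3 and 4 had 33 and 32 members below the control mean (41.5% and 46.8% of all genes), and some of their members moved far in either direction (-2.41 to 1.93 in replicate 3). The controls themselves fell into a lower pair (replicates 1 and 2) and a higher pair (replicates 3 and 4). The mean of the array medians was -0.48 ± 0.38 with seminal plasma, 0.09 ± 0.22 with TGFB3 and 0.0050 ± 0.28 in control (SD, n = 4 each).

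**Figure D1:**
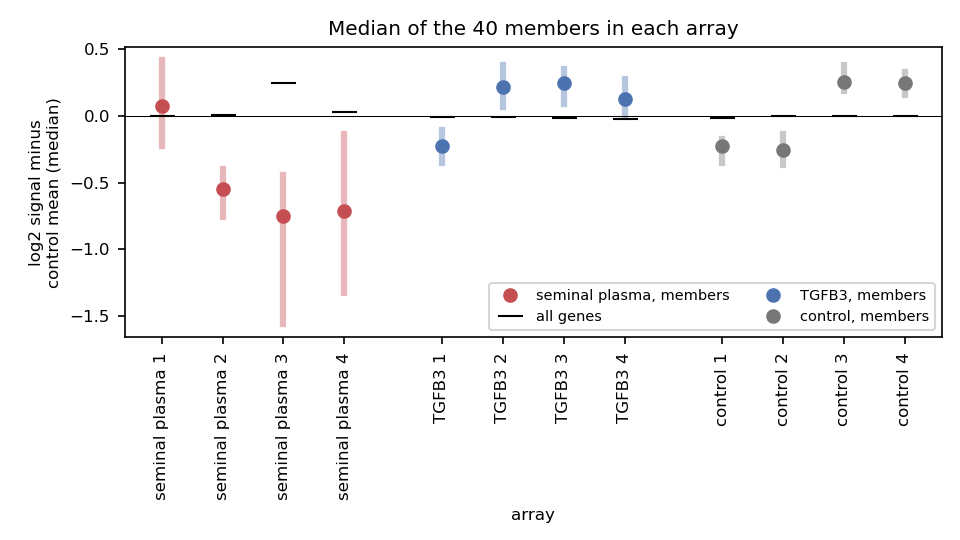
Median over the 40 members of the log2 signal minus the gene's control mean, for each of the 12 arrays (points; bars span the middle 50% of members; dashes give the median of all genes). Seminal plasma replicates 2 to 4 lie at -0.55 to -0.75, seminal plasma replicate 1 at 0.07, and the TGFB3 and control arrays between -0.26 and 0.26.

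**Figure D2:**
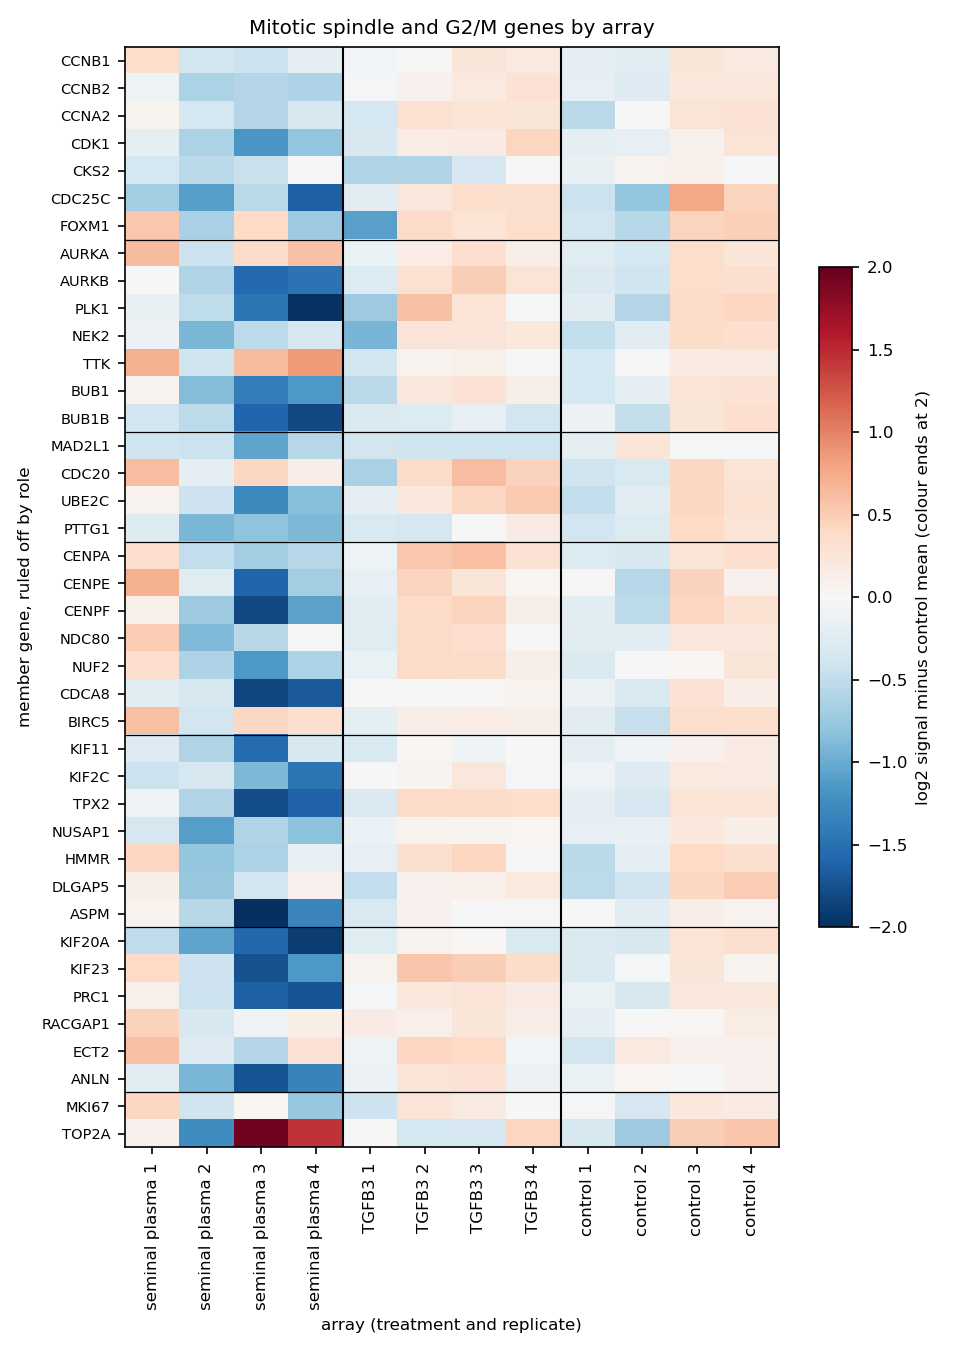
Log2 signal minus control mean for each member (rows, ruled off by role) in each array (columns; blue is lower, red is higher, and the colour ends at 2). Seminal plasma replicate 2 is blue throughout, while replicates 3 and 4 show deep blue for members such as ASPM, TPX2 and KIF20A and red for TOP2A and TTK.

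Genes of mitotic entry were the cyclins, CDK1 and its regulators. All 7 had a log2 fold change below 0 with seminal plasma (median -0.35), 0 of 7 were called and 3 were lower at an unadjusted p under 0.05. Without replicates 3 and 4 the median was -0.37 and 1 was lower at that p. For this and the groups that follow, the shares of all genes at that p are 12.3% with all arrays and 7.67% without replicates 3 and 4. CDK1, the kinase that drives entry into mitosis, gave signals of 5391, 3945, 2727 and 3559 in seminal plasma replicates 1 to 4, 4895, 6757, 6889 and 8270.1 in TGFB3 replicates 1 to 4, and 5410.3, 5445, 6479.8 and 7368 in control replicates 1 to 4. Its seminal plasma arrays lay below every control. The log2 fold change was -0.69 ± 0.24 (± is the fitted SE throughout, with 4 arrays a group; limma adjusted p 0.112), or -0.41 without replicates 3 and 4. CCNB1, cyclin B1 and the partner of CDK1, gave 8420.2, 5137, 4889.7 and 5854 in seminal plasma replicates 1 to 4, 6339, 6733, 7791 and 7537 in TGFB3 replicates 1 to 4, and 5746, 5661, 7824 and 7443 in control replicates 1 to 4. One seminal plasma array was above every control and the other 3 below or among them, for a log2 fold change of -0.15 ± 0.20. CCNB2, the second B cyclin, and CDC25C, the phosphatase that frees CDK1 of its inhibitory phosphates, had log2 fold changes of -0.49 ± 0.18 and -0.99 ± 0.36 (limma adjusted p 0.138 and 0.124).

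FOXM1, a transcription factor that drives many G2/M genes, gave signals of 1915, 844, 1735 and 800.5 in seminal plasma replicates 1 to 4, 623, 1717, 1590.4 and 1683 in TGFB3 replicates 1 to 4, and 1026, 893, 1796 and 1837 in control replicates 1 to 4. The arrays of every treatment covered nearly the same range, and the log2 fold change with seminal plasma was -0.11 ± 0.43 with a 95% interval of -1.06 to 0.85. CKS2, a small subunit that binds CDK1, gave 11153, 9773, 10409 and 13779 in seminal plasma replicates 1 to 4, 9422, 9333, 11262 and 14278 in TGFB3 replicates 1 to 4, and 12861, 14929.9, 15313 and 13929.7 in control replicates 1 to 4. In each treatment 3 arrays lay below every control and replicate 4 among them, for a log2 fold change of -0.35 ± 0.18 with seminal plasma. CCNA2, cyclin A2, which acts in S phase and G2, had a log2 fold change of -0.29 ± 0.24 with seminal plasma.

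Among the mitotic kinases, 5 of 7 were below 0 with seminal plasma (median log2 fold change -0.83), 0 were called, and 4 were lower at an unadjusted p under 0.05. The median was -0.33, with 0 lower at that p, when replicates 3 and 4 were left out. PLK1, which acts from mitotic entry to cytokinesis, gave 1932, 1495, 782 and 539.7 in seminal plasma replicates 1 to 4, 1287, 3195, 2582 and 2074 in TGFB3 replicates 1 to 4, and 1827, 1416, 2768 and 2886 in control replicates 1 to 4. Replicates 3 and 4 of seminal plasma were the lowest of all arrays, while replicates 1 and 2 lay among the controls, for a difference in log2 of -1.02 ± 0.44 (limma adjusted p 0.181) that came to -0.33 without replicates 3 and 4. BUB1B, which encodes the checkpoint protein BUBR1, gave 2089, 1894, 904 and 781 in seminal plasma replicates 1 to 4, 2219, 2253, 2421 and 2102 in TGFB3 replicates 1 to 4, and 2520.5, 1965, 3216 and 3457 in control replicates 1 to 4. Seminal plasma replicates 2 to 4 were below every other array and replicate 1 lay among the controls. Its log2 fold change was -1.08 ± 0.33 (limma adjusted p 0.0859), or -0.45 without replicates 3 and 4. AURKB, the chromosomal passenger kinase, and BUB1, a kinetochore checkpoint kinase, had log2 fold changes of -0.91 ± 0.36 and -0.83 ± 0.32.

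AURKA and TTK had log2 fold changes above 0 that passed neither the adjusted nor the unadjusted threshold. AURKA, the centrosomal Aurora kinase, gave 7165, 3485, 6026 and 6972 in seminal plasma replicates 1 to 4, 4243, 5134, 5819 and 5063 in TGFB3 replicates 1 to 4, and 3925, 3626, 5923 and 5465 in control replicates 1 to 4. With the exception of replicate 2, the seminal plasma arrays exceeded the highest control, for a log2 fold change of 0.30 ± 0.26, which is 0.18 above the median of all genes. Its second probe set, 204092_s_at, was at -0.40 ± 0.21 (limma adjusted p 0.258), with signals of 4526, 2692, 3105 and 3425 in seminal plasma replicates 1 to 4, against 3670.5, 3961, 5363 and 5092 in control replicates 1 to 4. TTK, the MPS1 kinase at the head of the spindle checkpoint, gave 3244, 1502, 3062 and 3573 in seminal plasma replicates 1 to 4, 1525, 2068, 2110.1 and 1958 in TGFB3 replicates 1 to 4, and 1554, 1971, 2214 and 2242 in control replicates 1 to 4. Seminal plasma replicate 2 was the lowest of the 12 arrays and the other 3 the highest, for a log2 fold change of 0.45 ± 0.27 (95% interval -0.15 to 1.05, limma adjusted p 0.32). TTK was called higher in the fit without replicate 2. NEK2, a kinase that splits the centrosomes, had a log2 fold change of -0.47 ± 0.32.

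Of the 4 genes that act on the anaphase-promoting complex or on separase, 3 were below 0 with seminal plasma (median log2 fold change -0.62), 0 were called and 2 were lower at an unadjusted p under 0.05. The fit without replicates 3 and 4 gave a median of -0.29 and 1 lower at that p. MAD2L1, the checkpoint protein that holds CDC20 inactive, gave 5911, 5798, 3737 and 5231 in seminal plasma replicates 1 to 4, 6048, 5925, 5931 and 5938 in TGFB3 replicates 1 to 4, and 6843, 9208, 7713 and 7609.6 in control replicates 1 to 4. Both treatments lay below all controls in every array. With TGFB3 this was so for 1 of the 40 members and for 1308 of 19682 genes. The log2 fold change with seminal plasma was -0.62 ± 0.17 (limma adjusted p 0.074), and -0.41 without replicates 3 and 4 (limma adjusted p 0.168). PTTG1, the securin that inhibits separase, gave 9526, 6061, 6514 and 6132 in seminal plasma replicates 1 to 4, 9189, 9075, 11385 and 12836 in TGFB3 replicates 1 to 4, and 8791, 9414, 14982 and 13637 in control replicates 1 to 4. Seminal plasma replicate 1 lay among the controls and the other 3 below them. The log2 fold change was -0.72 ± 0.23 (limma adjusted p 0.1). UBE2C, the ubiquitin-conjugating enzyme of the anaphase-promoting complex, gave 6210.2, 4407, 2442 and 3279.6 in seminal plasma replicates 1 to 4, 5180.4, 6898, 7879 and 8501 in TGFB3 replicates 1 to 4, and 4190.1, 5073, 7826 and 7273 in control replicates 1 to 4. Seminal plasma replicates 3 and 4 were the lowest arrays and replicates 1 and 2 lay among the controls, with a log2 fold change of -0.62 ± 0.31. CDC20, the activator of that complex, was at 0.25 ± 0.32.

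Kinetochore and centromere genes had 6 of 7 members below 0 (median log2 fold change -0.46), with 0 called and 2 lower at an unadjusted p under 0.05 (0 without replicates 3 and 4, where the median was -0.14). Those were CDCA8, the borealin subunit of the chromosomal passenger complex, at -1.01 ± 0.35, and CENPF, a kinetochore protein, at -0.87 ± 0.38. Without those arrays they came to -0.27 and -0.31. CENPA, the histone H3 variant that marks centromeres, gave 3333, 1887, 1632 and 1784 in seminal plasma replicates 1 to 4, 2510.1, 3864, 4037 and 3251 in TGFB3 replicates 1 to 4, and 2201, 2111, 3164 and 3354 in control replicates 1 to 4. Seminal plasma replicate 1 lay at the height of the upper controls and replicates 2 to 4 below every control, for a log2 fold change of -0.36 ± 0.27. BIRC5, survivin, of the same passenger complex as CDCA8, gave 3333, 1699.6, 2919 and 2768 in seminal plasma replicates 1 to 4, 1920.1, 2399.8, 2437 and 2386 in TGFB3 replicates 1 to 4, and 1877, 1596, 2757 and 2779 in control replicates 1 to 4. Its groups overlapped, and its log2 fold change was 0.25 ± 0.25, which is 0.14 above the median of all genes, or -0.047 over the mean of its probe sets. CENPE, the kinetochore motor, and NDC80 and NUF2, which bind microtubules together, were at -0.46, -0.24 and -0.52.

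Spindle motors and microtubule-binding proteins had all 7 members below 0 (median log2 fold change -0.71). None was called, and 5 of the 7 were lower at an unadjusted p under 0.05, 3 of them also without replicates 3 and 4 (median -0.35). NUSAP1, which bundles spindle microtubules, gave 4572, 2685, 3776 and 3259 in seminal plasma replicates 1 to 4, 5325, 6016, 5979.6 and 5943 in TGFB3 replicates 1 to 4, and 5132, 5172, 6649.8 and 6213 in control replicates 1 to 4. On the probe set used, all 4 seminal plasma arrays were below all 8 others. The log2 fold change was -0.71 ± 0.18 (limma adjusted p 0.0605) and -0.72 without replicates 3 and 4 (limma adjusted p 0.175), and over the alternatives tried the adjusted p ran from 0.0360 to 0.256. KIF2C, a kinesin that depolymerises microtubules at kinetochores, gave 2219.8, 2406, 1609 and 1082 in seminal plasma replicates 1 to 4, 2999, 3099, 3488 and 2902 in TGFB3 replicates 1 to 4, and 2789, 2498, 3422 and 3365 in control replicates 1 to 4, also with no overlap. Its log2 fold change was -0.78 ± 0.24 (limma adjusted p 0.0919). TPX2, a spindle assembly factor that activates AURKA, and ASPM, a protein of the spindle poles, were at -1.02 ± 0.37 and -1.05 ± 0.42, and came to -0.35 and -0.24 without replicates 3 and 4. KIF11, the motor that pushes the spindle poles apart, was at -0.68 ± 0.26.

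Of the 6 central spindle and cytokinesis genes, 4 were below 0 (median log2 fold change -0.82), 1 was called and 3 were lower at an unadjusted p under 0.05. Without replicates 3 and 4 the median was -0.08, 0 were called and 2 were lower at that p. KIF20A, a kinesin of the central spindle needed for cytokinesis, gave 1669, 1143, 800.2 and 638 in seminal plasma replicates 1 to 4, 2006, 2484, 2416 and 1929 in TGFB3 replicates 1 to 4, and 1948, 1904, 2862 and 2983 in control replicates 1 to 4. Every seminal plasma array lay below every TGFB3 and control array. KIF20A fell with seminal plasma by a log2 fold change of -1.26 ± 0.29 (95% interval -1.90 to -0.61; limma adjusted p 0.0491). With any 1 of the 12 arrays left out, that call stood in 2 fits, those without seminal plasma replicate 1 or 2, and the adjusted p ran from 0.0193 to 0.202 over all alternatives. The value without replicates 3 and 4 was -0.78 (limma adjusted p 0.202).

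ANLN, anillin, the scaffold of the contractile ring, gave 4507, 2785, 1597 and 2083 in seminal plasma replicates 1 to 4, 4846, 6276, 6442 and 4831 in TGFB3 replicates 1 to 4, and 4805, 5407, 5317 and 5577 in control replicates 1 to 4. Its groups did not overlap either, and the difference was -1.05 ± 0.28 in log2 (limma adjusted p 0.066), or -0.57 without replicates 3 and 4 (limma adjusted p 0.263). PRC1, which crosslinks the microtubules of the central spindle, was at -0.92 ± 0.37, and -0.16 without those arrays. KIF23, the kinesin subunit of centralspindlin, gave 1827, 1029, 414 and 623 in seminal plasma replicates 1 to 4, 1442, 2029, 1941 and 1774 in TGFB3 replicates 1 to 4, and 1127, 1356, 1633 and 1447 in control replicates 1 to 4. Its seminal plasma arrays spanned the highest and the lowest values outside TGFB3, for a log2 fold change of -0.72 ± 0.38 that came to -0.01 without replicates 3 and 4. RACGAP1, the other centralspindlin subunit, gave 6154, 3581, 4271 and 4919 in seminal plasma replicates 1 to 4, 4979, 4772, 5259 and 4864 in TGFB3 replicates 1 to 4, and 3926, 4455, 4581 and 4950.4 in control replicates 1 to 4. Seminal plasma held both the highest and the lowest of the 12 arrays. RACGAP1 and ECT2, the exchange factor that switches on RHOA at the cell equator, were at 0.06 ± 0.18 and 0.01 ± 0.27.

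Of the markers used to count dividing cells, neither was called. MKI67, the Ki-67 antigen, gave 3568, 2037, 2763 and 1587 in seminal plasma replicates 1 to 4, 2019.9, 3216, 3045 and 2692 in TGFB3 replicates 1 to 4, and 2615, 2116, 3118 and 3003 in control replicates 1 to 4. The groups overlapped, and the log2 fold change was -0.18 ± 0.27 with a 95% interval of -0.76 to 0.41. TOP2A, topoisomerase II alpha, which untangles sister chromatids, gave 4659.8, 1857, 16696 and 11872 in seminal plasma replicates 1 to 4, 4365, 3415, 3463 and 5918 in TGFB3 replicates 1 to 4, and 3499.9, 2648, 6152 and 6399 in control replicates 1 to 4. Seminal plasma replicates 3 and 4 were the highest of the 12 arrays and replicate 2 the lowest. The log2 fold change was 0.56 ± 0.61 with all arrays and -0.57 without replicates 3 and 4.

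**Figure D3:**
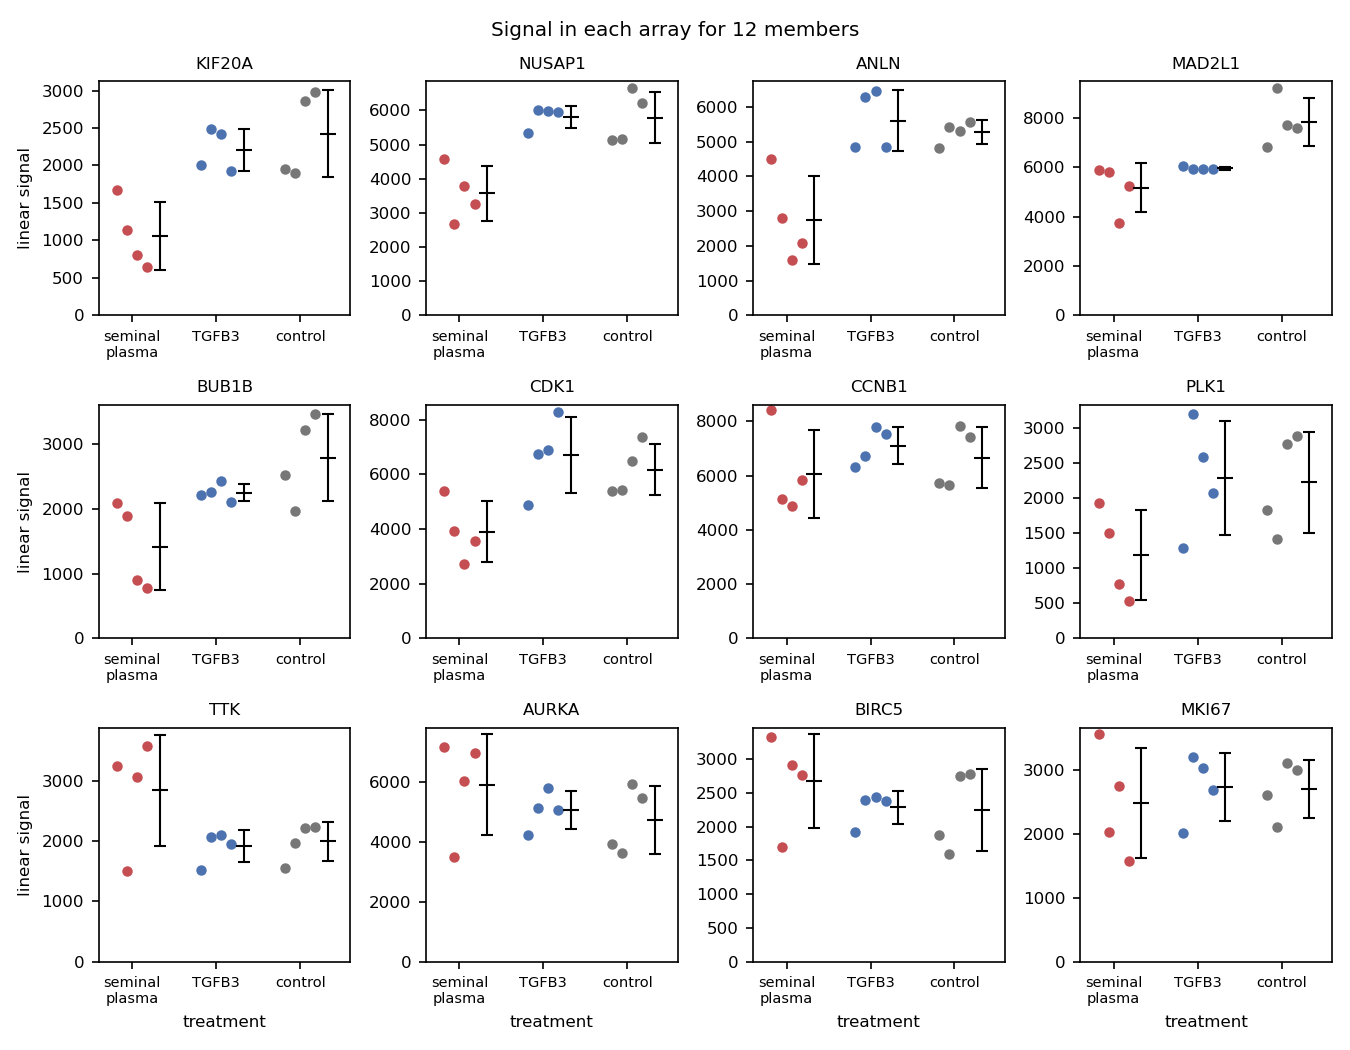
Linear signal in each array for 12 members (points in replicate order, 4 per treatment), with the mean and SD beside them. The seminal plasma points of KIF20A, NUSAP1 and ANLN all lie below the other treatments, those of TTK and AURKA are high except for replicate 2, and those of MKI67 overlap the controls.

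Probe sets of 1 gene differed in size and in sign. The second TOP2A probe set, 201292_at, gave 4186, 2619, 1109 and 1680.4 in seminal plasma replicates 1 to 4, 3801, 5844, 5829 and 5633 in TGFB3 replicates 1 to 4, and 3620.03, 4677, 6336 and 6544 in control replicates 1 to 4. On that probe set seminal plasma replicates 3 and 4 were the lowest of all arrays, where on 201291_s_at they were the highest, and the log2 fold changes were -1.28 and 0.56. For MAD2L1 the second probe set (1554768_a_at) gave 1725, 2218, 285 and 358 in seminal plasma replicates 1 to 4, against 3973, 3469.8, 3254 and 3304 in control replicates 1 to 4, which in log2 was -2.14 ± 0.59 (limma adjusted p 0.0691). For ANLN the second probe set (1552619_a_at) was at -2.18 ± 0.65, and for HMMR, a microtubule-binding protein of the spindle, 209709_s_at was at -1.75 ± 0.50 against -0.28 on the brighter 207165_at. For NUSAP1 the second probe set (219978_s_at) gave 1469, 825, 4337 and 4238.5 in seminal plasma replicates 1 to 4. In control replicates 1 to 4 it gave 2456, 1823, 4016 and 3993. Its seminal plasma replicates 3 and 4 were the highest of all arrays and replicates 1 and 2 the lowest. The log2 fold change there was -0.42 (limma adjusted p 0.631), or -1.40 without replicates 3 and 4. Other second probe sets lay above 0 where the brightest lay below. That of AURKB (239219_at) was at 1.43 (limma adjusted p 0.0607) against -0.91 on the brightest, the widest gap of all. Those of CCNB2 (232768_at) and KIF23 (244427_at) were at 1.42 and 1.06 (limma adjusted p 0.156 and 0.0572). That of CENPF (209172_s_at) was at 0.37, and the 2 further ones of ASPM (232238_at and 239002_at) at 0.49 and 0.75. Those of CCNB1 (228729_at) and MKI67 (212022_s_at) were at 0.27 and 0.13, against -0.15 and -0.18 on the brightest. Since the brightest was used, every other probe set is dimmer by that choice. Mean signals were 137.0 against 5653.9 for CCNB2 and 189.1 against 1386.9 for KIF23. For CENPF they were 523.2 against 2113.4, and for ASPM 667.2 and 515.5 against 2284.5. For CCNB1 they were 3261.9 against 6614.55, and for MKI67 2465.6 against 2648.3.

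Of 28 second or further probe sets with a mean signal of at least 100, from 22 members, 15 had the sign of the probe set used and 13 the opposite one. The gap was over 1 on the log2 scale in 12 of the 28, and in 2 of them without replicates 3 and 4. The median gap was 0.67, and 0.46 without those arrays. Counting every probe set, 4 of 77 (5.19%) were called lower and 0 higher with seminal plasma, against 1.21% of all probe sets called lower. Besides KIF20A these were 210559_s_at of CDK1 (-1.62 ± 0.34, limma adjusted p 0.0382), 211080_s_at of NEK2 (-1.62 ± 0.34, 0.0364) and 215509_s_at of BUB1 (-1.0 ± 0.20, 0.0308). On the BUB1 probe set all 4 seminal plasma arrays lay at 359, 251, 277 and 406, against 770.4, 639, 544 and 612 in the controls. Without replicates 3 and 4, 2 of the 77 were called lower, against 0.403% of all probe sets. These were 211080_s_at of NEK2 (limma adjusted p 0.0404) and 203214_x_at of CDK1 (0.0453), while 210559_s_at of CDK1 and 215509_s_at of BUB1 did not pass (0.0569 and 0.0608).

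**Figure D4:**
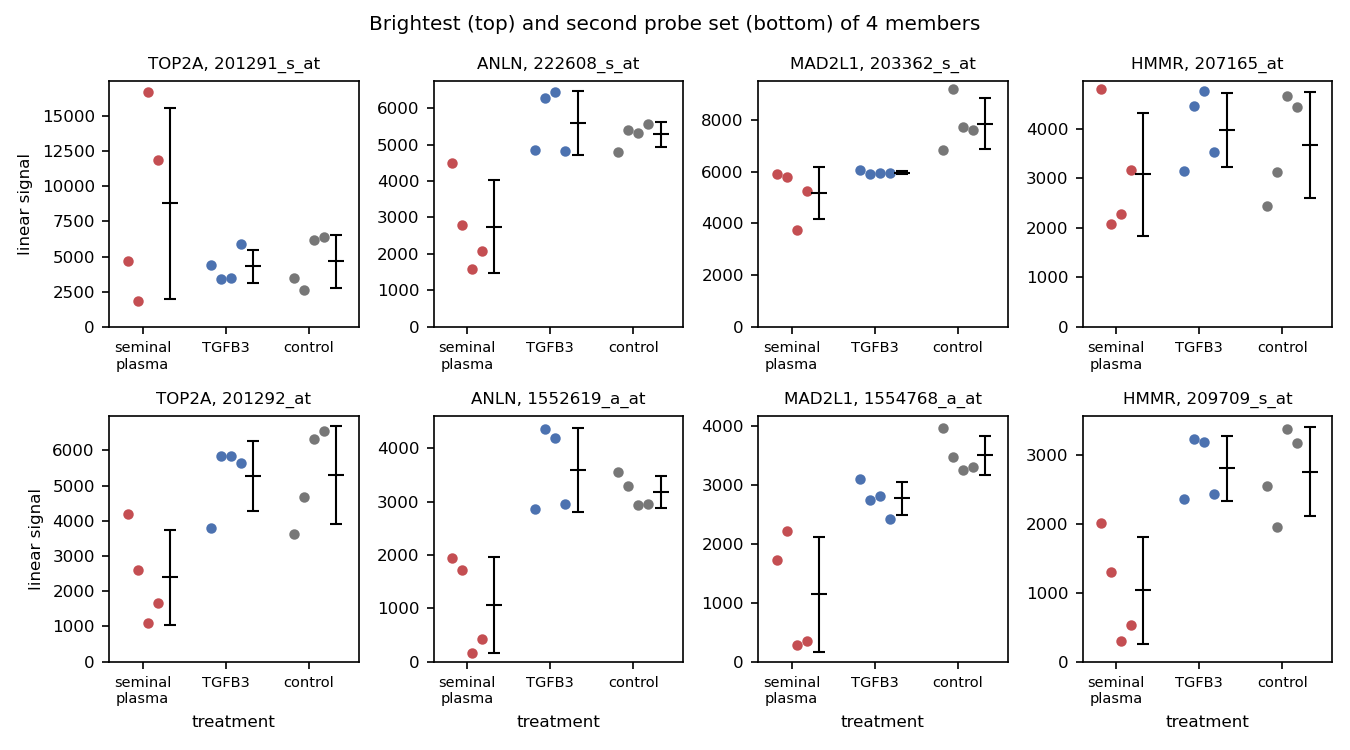
Linear signal in each array for the brightest (top) and the second probe set (bottom) of TOP2A, ANLN, MAD2L1 and HMMR, with the mean and SD beside the points. For TOP2A seminal plasma replicates 3 and 4 are the highest arrays on one probe set and the lowest on the other.

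With TGFB3 none of the 40 members passed the test in either direction, against 0.0406% of all genes called lower and 0.254% called higher. At an unadjusted limma p under 0.05, 1 member was lower (MAD2L1) and 0 were higher, against 5.31% and 4.48% of all genes. Without seminal plasma replicates 3 and 4, which also enter the shared spread, none of the 40 was called. Of all genes, 0.239% were then called lower and 0.528% higher. At an unadjusted limma p under 0.05, 2 members were lower in that fit (MAD2L1 and CKS2) and 0 higher. That held for 1913 and 1390 of the 19682 genes. The log2 fold changes ran from -0.39 to 0.37 with a median of 0.09, against -0.01 over all genes. Of the 40 members 28 were above 0, as were 9262 of the 19682 genes. Over the 77 probe sets, 0 were called lower (0.0220% of all probe sets). These values share the control arrays with the seminal plasma comparison. By role, the median was 0.11 for mitotic entry, 0.02 for the kinases, 0.04 for the checkpoint and anaphase-promoting complex genes, 0.14 for the kinetochore, 0.01 for the spindle proteins and 0.15 for cytokinesis.

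MAD2L1 was the member with the smallest p with TGFB3, at -0.39 ± 0.17 (limma adjusted p 0.655). Its limma adjusted p was 0.152 without seminal plasma replicates 3 and 4. The 4 TGFB3 arrays of MAD2L1 lay within 5925 to 6048. CKS2, BUB1B and PTTG1 followed among members below 0, at -0.38 ± 0.18, -0.28 ± 0.33 and -0.12 ± 0.23. Above 0 the smallest p-values were those of CENPA (0.34 ± 0.27), KIF23 (0.37 ± 0.38), RACGAP1 (0.15 ± 0.18) and UBE2C (0.25 ± 0.31), with limma adjusted p of 0.926 to 0.982. The 95% intervals of CENPA, UBE2C and KIF23 were -0.26 to 0.94, -0.45 to 0.94 and -0.47 to 1.22. The widest among the members was that of TOP2A, -1.41 to 1.28. Differences up to those bounds remain possible. These intervals rest on the spread shared by all 3 treatments, seminal plasma included, and not on the TGFB3 arrays alone. TGFB3 replicate 1 was the lowest TGFB3 array for many members, with 36 of 40 below the control mean, where replicates 2 to 4 had 6, 6 and 12. Of all genes, 50.5%, 50.6%, 51.2% and 51.8% were below it in TGFB3 replicates 1 to 4.

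The direct comparison of seminal plasma with TGFB3 shares its seminal plasma arrays with the comparison to control. Of the 40 log2 fold changes, 34 were below 0 (42.3% of all genes), with a median of -0.61 against 0.12 over all genes. None was called lower or higher, against 0.752% and 1.21% of all genes, while 22 were lower at an unadjusted limma p under 0.05 (10.0% of all genes) and 0 higher (14.0%). The smallest adjusted p was that of ANLN (-1.13 ± 0.28, limma adjusted p 0.0678), followed by NUSAP1 (-0.73 ± 0.18, 0.0687), KIF20A (-1.14 ± 0.29, 0.0719) and KIF2C (-0.83 ± 0.24, 0.0971). Those above 0 with the smallest p were TTK (0.51 ± 0.27), TOP2A (0.62 ± 0.61), BIRC5 (0.19 ± 0.25) and AURKA (0.18 ± 0.26). In 9 members every seminal plasma array lay below every TGFB3 array, as in 4.80% of all genes, and in 0 members all lay above (6.83% of all genes). Without seminal plasma replicates 3 and 4 the median was -0.32, none of the 40 was called on the probe set used (0.279% of all genes called lower), and 6 members were lower at an unadjusted p under 0.05 (6.08% of all genes). Over all 77 probe sets, 4 were called lower than with TGFB3 (0.780% of all probe sets), those of CDK1, NEK2 and BUB1 named above and 234992_x_at of ECT2 (limma adjusted p 0.0305). Without replicates 3 and 4, 3 of the 77 were called (3.90%, against 0.337% of all probe sets), those of NEK2, BUB1 and ECT2 (limma adjusted p 0.0267, 0.0473 and 0.0291).

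**Figure D5:**
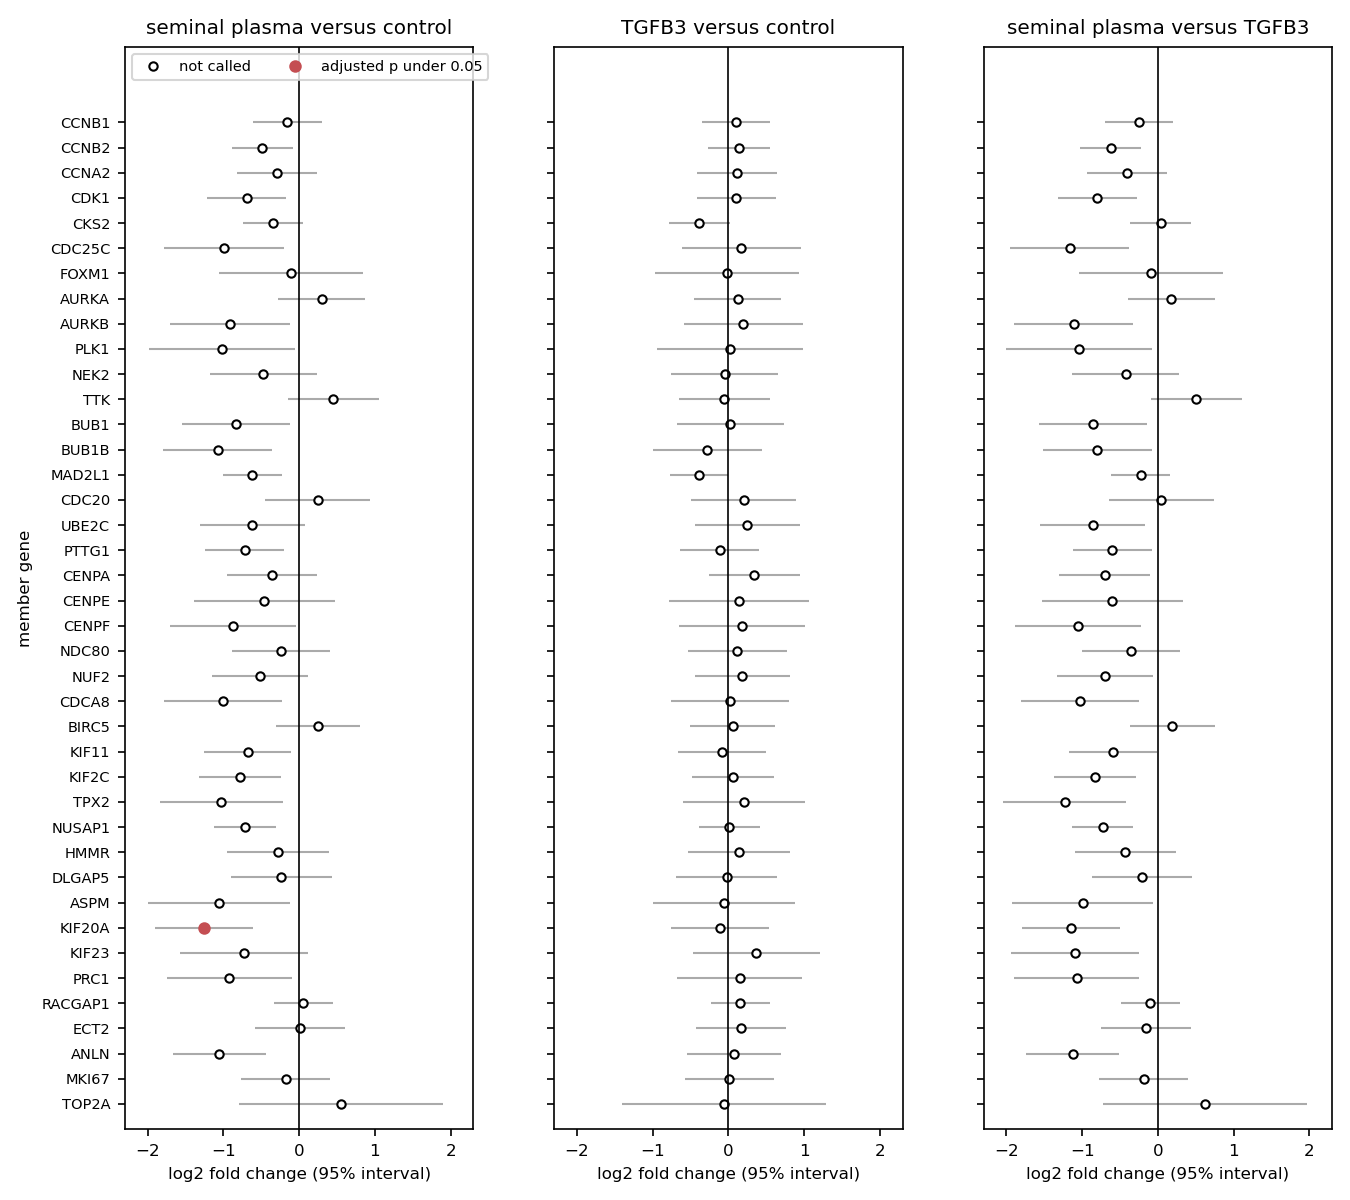
Fitted log2 fold change of each member in the 3 comparisons (points; bars are 95% intervals from the limma fit; the filled point passed an adjusted p of 0.05). Values against control run from -1.26 to 0.56 with seminal plasma and from -0.39 to 0.37 with TGFB3.

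Other cell cycle genes made up 4 lists with 116 genes measured. Of them, 6 (5.17%) were called lower and 0 higher with seminal plasma than in control, against 1.38% and 1.87% of all genes. Of the 40 members, 1 (2.5%) was called lower. Their median log2 fold change was -0.34. WEE1, the kinase that puts the inhibitory phosphate on CDK1, fell to 1664, 1635, 762 and 1164 in seminal plasma replicates 1 to 4, against 2727, 3018, 4047 and 3816 in control replicates 1 to 4, which in log2 was -1.43 ± 0.25 (limma adjusted p 0.0227). CKAP2, a microtubule-associated protein, fell to 1222, 1322, 1373 and 933 with seminal plasma, against 2082, 2099, 2420.3 and 2429.6 in control (-0.91 ± 0.16, limma adjusted p 0.0227). WEE1 and CKAP2 also passed without replicates 3 and 4 (limma adjusted p 0.042 and 0.0286) and in 9 of the 12 fits with 1 array fewer. The condensin subunits NCAPD2 and NCAPH fell by log2 fold changes of -1.50 ± 0.31 and -1.29 ± 0.30, the mitotic kinesin KIF15 by -1.04 ± 0.23 and the CDK4 and CDK6 inhibitor CDKN2C by -1.12 ± 0.25. These 4 did not pass without replicates 3 and 4 (limma adjusted p 0.117, 0.142, 0.182 and 0.165).

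By list, 2 of 40 other spindle, kinetochore and motor genes, 1 of 32 other kinases, phosphatases and anaphase-promoting complex genes, 2 of 15 condensin and cohesin genes and 1 of 29 regulators (DREAM, E2F, MYB and CDK inhibitor genes) were called lower with seminal plasma. With TGFB3, 0 of the 116 were called in either direction, with all arrays or without seminal plasma replicates 3 and 4. The smallest limma adjusted p among them was 0.149, or 0.0927 without those arrays. CDKN2B, the p15 inhibitor of CDK4 and CDK6 known as a TGF-beta target, gave 812, 2343, 1998 and 1247 in TGFB3 replicates 1 to 4, against 449, 458, 391 and 374 in control replicates 1 to 4. All TGFB3 arrays were above all controls, as in 932 of 19682 genes, but the log2 fold change of 1.83 ± 0.40 did not pass (limma adjusted p 0.149). CCND1, cyclin D1 of the G1 phase, was at -1.22 ± 0.33 with TGFB3 (limma adjusted p 0.277). In the other lists the smallest p-values with TGFB3 belonged to CDC25A (-0.91) and FZR1, an activator of the anaphase-promoting complex (0.51), to NDE1 (1.01) and CKAP2L (0.70), and to the condensin genes NCAPH2 (0.43) and NCAPD3 (-0.46), with limma adjusted p of 0.356 to 0.923.

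Between seminal plasma and TGFB3, 3 of the 116 were called lower with seminal plasma (CDKN2B, CDKN2C and WEE1) and 3 higher (CCND1, CDC25A and E2F3), against 0.752% and 1.21% of all genes. In log2, CDKN2B was at -2.45 ± 0.40 and CCND1 at 2.02 ± 0.33 (limma adjusted p 0.0243 and 0.0248). CDC25A, the phosphatase that acts on CDK2 at the start of S phase, was at 1.72 ± 0.28 (limma adjusted p 0.0241). CDKN2C, WEE1 and E2F3 were at -1.30, -1.26 and 1.60. In the lists without a call, CKAP2 and SKA1, a kinetochore protein, were at -0.73 and -1.25, and NCAPD2 and NCAPH at -1.23 and -1.15 (limma adjusted p 0.0506 to 0.0732). None of the 6 called genes passed without seminal plasma replicates 3 and 4, where CDKN2B was at -2.02 and CCND1 at 1.53.

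The members varied together from array to array. Over the 12 arrays the median Pearson correlation of log2 signals between pairs of members was 0.63 (780 pairs), and over the 8 TGFB3 and control arrays it was 0.71. These are descriptions, since all genes of an array share its RNA and its scaling. They include differences between treatments, and no other genes are set beside them. Over the 12 arrays 20 members followed the median of the other members with r above 0.8, with BUB1 at 0.97, AURKB at 0.93 and CCNB1 at 0.91. TOP2A, TTK, CKS2 and BIRC5 followed it least. Over the 8 arrays without seminal plasma 26 did so, TTK among them at 0.84, and MAD2L1, CKS2, ECT2 and RACGAP1 followed it least.

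In the authors' deposited table, the signed folds of the 40 members against control were negative for 33 with seminal plasma, from -2.28 to 1.88, with 2 at or below -2 and 0 at or above 2. With TGFB3, in the authors' deposited table, 11 were negative and the folds ran from -1.32 to 1.29.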

How the data were processed

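The labelling was a whole-transcript sense method per the labels' protocols, while the design text names single-cycle labelling, and which was used was not tested here. The deposited intensity values are linear, positive signals, 1 per probe set and array. The submitters' processing notes name RMA, MAS5, Partek, GCOS 1.4 and R 2.6.1 and do not say what each did. The authors' deposited table also holds a signed fold, a score computed from group means, used only as a description. Columns of other samples numbered 0.

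Signals were floored at 16 before log2, without further normalization or filter. Fold changes of dim probe sets are therefore understated. limma 3.58.1 (R 4.3.3; lmFit, eBayes) was fitted to all 12 arrays and 54613 probe sets with 1 mean per treatment and 1 shared spread. Benjamini-Hochberg adjustment ran over all probe sets, with calls at 0.05. The fit was tested on simulated data. Tables and figures used Python 3.11.15, pandas 2.3.3, numpy 2.4.6 and matplotlib 3.10.9. Probe sets with several symbols (1522) were not used. Of the other genes listed, UBE2S, CDC26 and CD68 have no probe set with 1 symbol and were not used here. The members and lists were chosen with earlier results of these data known.

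Array values are given for CDK1, CCNB1, MKI67, TOP2A, PLK1, AURKA, BIRC5 and FOXM1 and, in each comparison, for the 4 members with the smallest p below 0 and the 4 above. From each list of other cell cycle genes, up to 4 called genes with the largest change are named. A list without a call gives its 2 genes of smallest p. Members named by role, and second probe sets, were chosen after their values were seen. Alternatives covered the floor, the scaling, a dim filter, the choice of probe set, the variance model, array weights, the arrays fitted and a replicate block. Replicate numbers were not used to pair arrays. The same-number pairs correlated at -0.09 to 0.15 (12 pairs, 2 above 0.1), and pairs of different number at -0.13 to 0.095.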

Additional observations from a re-analysis of the deposited data

Results flagged for a closer look

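Within each treatment, the gap between the most extreme array and its nearest neighbour was set against the range of the 4 arrays (Dixon's test at the 95% level), and 10 of 120 groups of a member (8.33%) passed it, where chance gives about 1 in 20 for independent groups and 9.80% of all genes' groups passed. The members are not independent, since they share arrays. In 8 of the 10 TGFB3 replicate 1 was the array apart, in 20.0% of the members' TGFB3 groups against 4.54% of those of all genes. It was the lowest TGFB3 array for CCNA2 (2199, nearest other 3315), FOXM1 (622.6, nearest other 1590.4), NEK2 (1003, nearest other 2229.9), BIRC5 (1920.1, nearest other 2387), TPX2 (4426, nearest other 6891), NUSAP1 (5325, nearest other 5943) and DLGAP5, a spindle protein (1774, nearest other 2631). For MAD2L1 it was the highest, at 6048 with the nearest other at 5938. Seminal plasma replicate 1 was the array apart in the other 2, the highest of its group for CCNB2 (5595, nearest other 3978) and for PTTG1 (9526, nearest other 6514). No cause was tested.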

How the results depend on the processing

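The direction of the members' median held in every alternative with seminal plasma, from -0.95 to -0.29 against control and from -0.94 to -0.32 against TGFB3. The outer values came from median centring (-0.95 and -0.94), which shifts every gene alike, by -0.39 and -0.32, and from leaving out seminal plasma replicates 3 and 4 (-0.29 and -0.32). Relative to the median of all genes, the members' median against control was -0.68 as reported, -0.48 with array weights, -0.30 without replicates 3 and 4 and -0.95 without replicate 1. The count of members called lower than control, 1 as reported, was 0 with no floor above 1, quantile normalization, median centring, array weights, the replicate block, only the 2 groups compared, or both replicates 3 and 4 left out. It was 1 with a floor of 64 (NUSAP1 in place of KIF20A), 4 with the dim filter (6.29% of the genes left were called lower), 4 with an intensity trend and robust variance (3.84% of all genes), 3 with the mean over probe sets (CDK1, KIF20A and NEK2; 1.79%) and 4 over all probe sets of the members, a count added after seeing the data. Against TGFB3, 0 as reported, it was 1 with a floor of 64 (1.01% of all genes), 3 with the dim filter (3.32%), 2 with the mean over probe sets (1.07%), 4 with trend and robust variance (2.15%) and 4 over all probe sets. Leaving out 1 array gave 0 to 7 lower and 0 to 1 higher against control, and 0 to 8 lower and 0 to 1 higher against TGFB3. The 7 came without seminal plasma replicate 2 (8.61% of all genes called lower in that fit), the 8 without replicate 1 (1.16%), and 0 without any one of the control or TGFB3 arrays or of seminal plasma replicates 3 and 4. No alternative called a member with TGFB3, whose median ran from -0.03 to 0.21. Without replicates 3 and 4, 2 of the 116 other cell cycle genes were called lower against control (0.391% of all genes). Against TGFB3, 0 were lower and 0 higher, where the shares of all genes were 0.279% and 0.442%. The cause of these changes was not tested, beyond the fewer arrays of some fits.

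Under the replicate block the limma adjusted p of KIF20A was 0.0943, its fold change the same. Whether the replicate numbers pair the arrays was not settled. The block changed no other call among the 40 members. No sign that changed belonged to a called value, and those under median centring follow from its shift of every gene. With seminal plasma against control, signs changed for CCNB1 (0.058, mean over probe sets), TOP2A (-0.15 with array weights, -0.57 without replicates 3 and 4), AURKA (-0.089, median centring), BIRC5 (-0.14, median centring; -0.047, mean over probe sets), FOXM1 (0.017, quantile normalization) and MKI67 (0.0071 without replicates 3 and 4). Leaving out 1 array gave -0.37 to 0.019 for MKI67, -0.32 to 0.10 for FOXM1 and, with TGFB3 against control, -0.24 to 0.013 for PTTG1. Between seminal plasma and TGFB3 they changed for TOP2A (-0.51 without replicates 3 and 4), BIRC5 (-0.13, median centring; -0.18, mean over probe sets) and AURKA (-0.15, median centring; -0.20, mean over probe sets; -0.010 without replicates 3 and 4). Of 667 such values for named members, 602 kept direction and side of the threshold.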
